A study of Mus musculus with 6 samples.

Results

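The comparison described here sets primary mouse adipocytes given Rbm43 siRNA against the same cells given control siRNA, all of them with adenovirus encoding GFP. Genes were included when their normalized count was at least 10 in at least 2 of the 4 libraries compared, which held for 14039 of the 35976 rows of the deposited table. Every group, controls included, carried the genotype Ppargc1a(fl/fl), in which the gene for the coactivator PGC-1alpha is flanked by loxP sites. The groups were GFP virus with control siRNA and GFP virus with Rbm43 siRNA, and a further group, Cre virus with Rbm43 siRNA, entered only the estimate of the spread and the filter of the fit. Virus came first and siRNA second, RNA was taken after differentiation was complete, and each group had 2 libraries called biological duplicates. The labels do not say whether the duplicates came from separate animals or cultures, or what depot, sex or age the animals had. The p-values therefore measure the spread between these libraries, which may be technical.

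Rbm43 encodes a protein with an RNA recognition motif, the fold by which many proteins bind RNA. PGC-1alpha, the product of Ppargc1a, is a coactivator that docks on nuclear receptors and nuclear respiratory factors and raises the transcription of genes for mitochondrial respiration. In fat cells that make heat it raises Ucp1, the gene of an uncoupling protein that lets protons return across the inner mitochondrial membrane without making ATP.

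The control siRNA libraries held 18562682 and 15775398 reads in genes and the Rbm43 siRNA libraries 20284314 and 20907929, so 1 read was worth between 0.933 and 1.217 normalized counts in these 4 libraries. Between replicates the counts varied beyond sampling noise, with a chi-square of 4.13 per degree of freedom for the controls and 2.75 for Rbm43 siRNA. Adipocyte genes were abundant in every library, among them adiponectin (Adipoq) at 22094 and 21331 normalized counts with control siRNA and 22453 and 23077 with Rbm43 siRNA, in replicate order, as in all pairs of values below. Fibroblast genes were abundant as well, with collagen Col1a1 at 271898 and 264558, then 246019 and 229709. The label of adipocytes was thus met by its markers, in cultures that also held RNA typical of fibroblasts or preadipocytes. In bulk RNA, fewer cells of a type and less RNA per cell cannot be told apart.

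The siRNA target was examined first. Rbm43 (chromosome 2, 51924448 to 51935163 on mm10, minus strand, coordinates from RefSeq) was counted at 185 and 224 with control siRNA and at 43.7 and 46.6 with Rbm43 siRNA. Both treated libraries lay far below both controls, a log2 fold change of −2.15 ± 0.21 (SE, as for all fold changes below; limma adjusted p = 3.59e-07). None of the 7 other genes measured within 500000 bases of it was called, including its neighbour Nmi, an interferon-inducible gene, at 0.24 ± 0.13 (limma adjusted p = 0.199). Ppargc1a was counted at 163 and 202 and then 399 and 423, so it stood higher in both treated libraries, by 1.17 ± 0.10 (limma adjusted p = 7.68e-08). Neither group received Cre, so the loxP sites of Ppargc1a were not targeted.

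The promoter of Rbm43 carries a stretch that recurs in the results on interferon genes. A search of the 300 bases around the start (250 before and 50 after) for the core of the interferon-stimulated response element, GAAA, any 2 bases, GAAA, on either strand, found 2 overlapping matches, shown in capitals 5′ to 3′ along the gene. The stretch lies at chr2:51935357-51935402 on GRCm38.p6 (mm10), minus strand, and is taken from RefSeq.
Rbm43: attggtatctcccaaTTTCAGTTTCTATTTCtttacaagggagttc
Of all 32841 promoters in the table, 3.44% held this core, and of the 10458 genes compared that had a promoter there, 3.79% did. A match is a description of letters and shows no binding.

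With the target lowered, 3299 of the 14039 genes (23.5%) passed an adjusted p under 0.05. Of these, 1912 (13.6%) rose and 1387 (9.88%) fell, and these percentages are the background against which the counts per gene group below are read. The balance of directions moved with the scaling, to 1723 higher and 1593 lower with upper-quartile scaling and 1674 and 1677 with total scaling. Without the mean-variance trend of the fit, 875 genes rose and 426 fell, and every gene list with more than 1 call had fewer calls. By more than 2-fold, 137 rose and 45 fell, and by more than 1.5-fold 461 and 161. The median log2 fold change over all genes was −0.0062, and 90% of genes, those between the 5th and 95th percentiles, lay between −0.43 and 0.57. Both Rbm43 siRNA libraries stood above both controls in 4119 genes (29.3%) and below both in 4133 (29.4%), and all 3299 genes called were among these. Calls were more frequent among abundant genes, with 6.83% of the 2388 genes whose mean normalized count was under 50, 13.8% of 2598 at 50 to 200, 24% of 5283 at 200 to 1000 and 40.1% of 3770 above 1000. By direction, 844 rose and 667 fell of the 3770 above 1000, and 107 rose and 56 fell of the 2388 under 50. For lists of abundant genes the shares over all genes are thus a low background. Protein-coding genes were called in 24.9% of 12384 cases and long noncoding RNAs in 6.91% of 753. Members just inside the limit of 10 had a second-highest value from 10.26, 6 of the 243 under 12 were called, and the 340 genes just outside reached at most 9.737.

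The size of these counts depended on the model. Without the mean-variance trend 875 genes rose and 426 fell, DESeq2 on the recovered reads gave 1267 and 768, and without Rbm43 siRNA replicate 2 there were 1357 and 755. With no filter on low values 1400 rose and 869 fell.

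**Figure D1:**
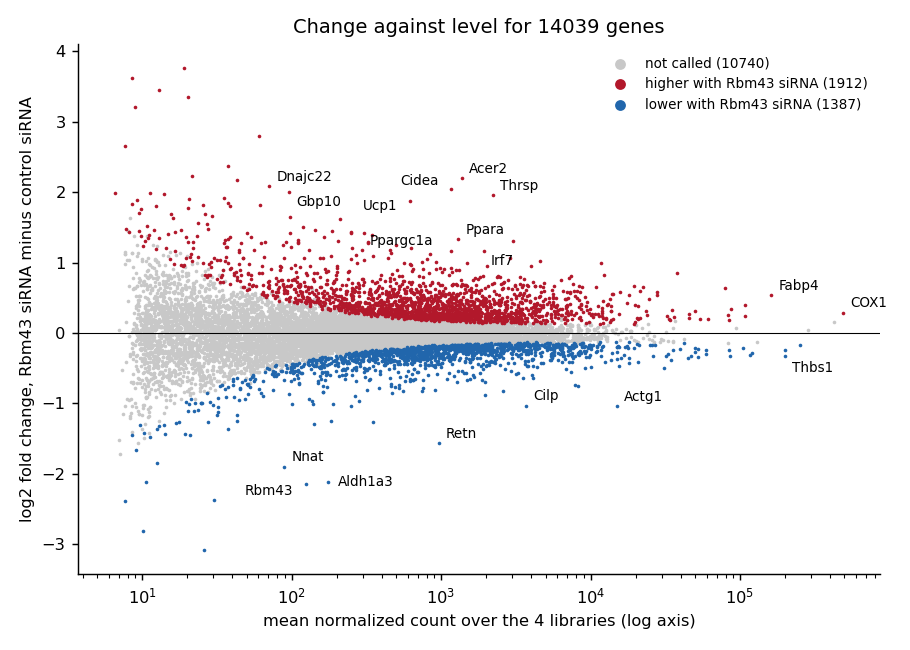
Log2 fold change (vertical axis, Rbm43 siRNA minus control siRNA) against the mean normalized count of the 4 libraries (horizontal log axis), 1 point for each of 14039 genes. Red points are the 1912 genes called higher, blue points the 1387 called lower, and gray points the rest; Acer2, Cidea, Thrsp and Ucp1 are labelled above the line, and Retn, Aldh1a3 and Rbm43 below it.

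Among genes averaging 50 normalized counts or more, the 15 largest rises held enzymes of lipid signalling, brown fat genes and a promoter of fatty acid synthesis. Acer2, an alkaline ceramidase of the Golgi, went from 453 and 538 to 2225 and 2311 (2.20 ± 0.075). Cidea, which coats and enlarges lipid droplets in brown fat, went from 488 and 415 to 1836 and 1893 (2.05 ± 0.073), and Thrsp, which promotes fatty acid synthesis, from 971 and 849.6 to 3529 and 3542 (1.96 ± 0.064). In these 3 genes both treated libraries lay far above both controls, groups apart being a condition of the choice. The limma adjusted p-values of the 3 were 4.15e-13, 5.92e-13 and 3.85e-13.

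Ucp1 was counted at 284 and 248 and then 1043 and 909 (1.87 ± 0.087). The locus 4631405J19Rik had the largest rise of the 15, 2.80 ± 0.24, from low counts of 18.7 and 11.0 to 96.1 and 117. Others were the heat shock co-chaperone family member Dnajc22 (2.08 ± 0.22), the interferon-induced GTPase Gbp10 (2.01 ± 0.22), Cds1, which makes CDP-diacylglycerol for phospholipids (1.81 ± 0.21), the inositol monophosphatase Impa2 (1.62 ± 0.14) and the cannabinoid receptor Cnr1 (1.46 ± 0.14). The treated libraries of Impa2 were unequal, at 379 and 261 over controls of 101 and 102. Carbonic anhydrase 2 (Car2, 1.45 ± 0.12), Pald1 (1.44 ± 0.10), the glycogen-targeting subunit Ppp1r3a (1.43 ± 0.21), Gm5627 (1.65 ± 0.16) and 6430571L13Rik (1.51 ± 0.15) completed the list. Gbp10 belongs to a family of near-identical genes among which reads can be split, so its value is uncertain.

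The 15 largest falls included Rbm43 itself and were next led by Aldh1a3, an enzyme that makes retinoic acid, which went from 264 and 310.4 to 69.9 and 60.6 (−2.12 ± 0.15; limma adjusted p = 1.10e-08). Nnat, an imprinted membrane proteolipid gene, went from 160.2 and 124 to 35.9 and 38.2 (−1.90 ± 0.20), and the adipokine resistin (Retn) from 1513 and 1364 to 515 and 457 (−1.56 ± 0.076). Groups were apart in each of these, as the choice of the 15 required. Cytoplasmic gamma-actin (Actg1) had the highest counts of the 15 and went from 19371 and 20779.7 to 10155 and 9406 (−1.04 ± 0.051; limma adjusted p = 6.48e-11), while beta-actin (Actb), its close paralog, was not called at −0.082 ± 0.053. The matrix protein gene Cilp went from 4914 and 5021 to 2444 and 2411 (−1.03 ± 0.050).

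Among the smaller falls, Dio3, which inactivates thyroid hormone (−1.04 ± 0.13), the chemerin receptor Cmklr1 (−1.01 ± 0.14), endothelial nitric oxide synthase Nos3 (−1.01 ± 0.18), thrombospondin Thbs4 (241 and 263 to 126 and 124) and tissue-nonspecific alkaline phosphatase Alpl (−0.96 ± 0.11) each fell by about 2-fold. Wfdc21 (−1.30 ± 0.16), carbonyl reductase Cbr2 (−1.26 ± 0.11), Mmd2 (−1.25 ± 0.15) and the sialyltransferase St3gal6 (−0.97 ± 0.15) made up the rest. Each of the 30 genes kept its call under every alternative setting tried.

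**Figure D2:**
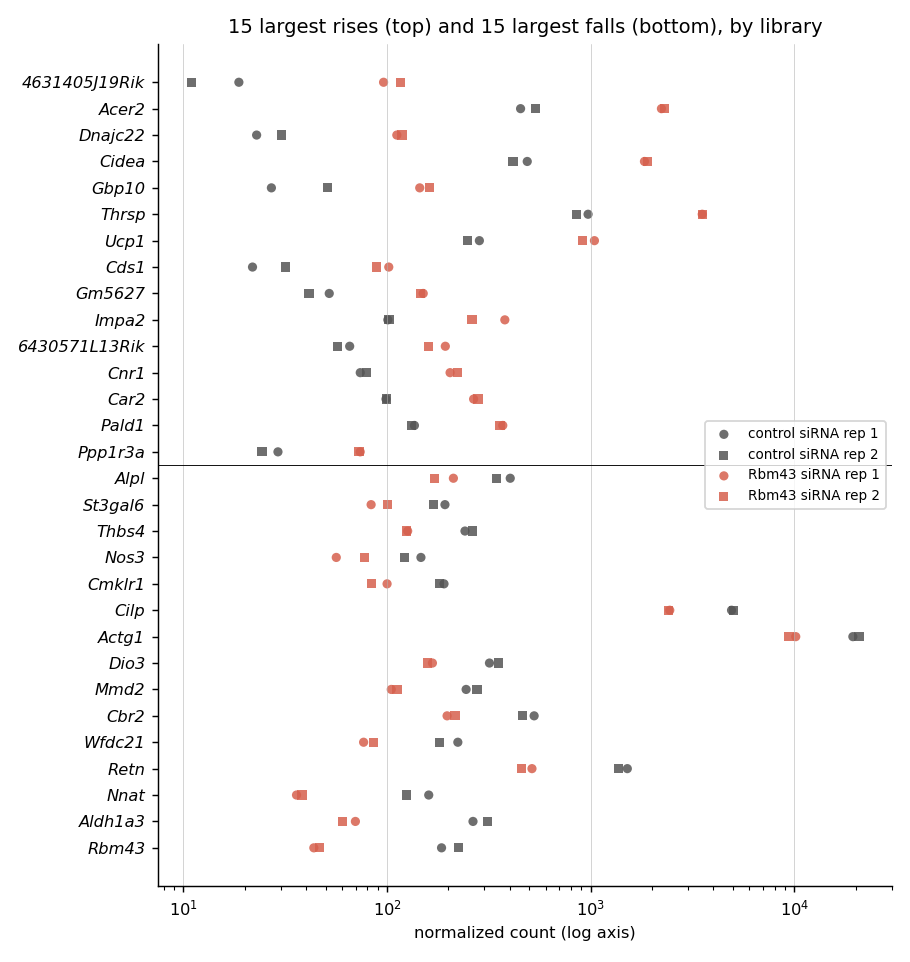
Normalized count (log axis) in each of the 4 libraries for the 15 largest rises (above the line) and the 15 largest falls (below it); gray marks are control siRNA and orange marks Rbm43 siRNA, circles replicate 1 and squares replicate 2. That both treated libraries lie on 1 side of both controls was a condition for choosing these 30 genes. Actg1 is highest among the falls at 19371 and 20779.7 against 10155 and 9406.

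Seen as shares of all normalized counts, the largest gains included these metabolic RNAs. The mitochondrially encoded COX1 went from 2.30% to 2.76%, the fatty acid carrier Fabp4 from 0.684% to 0.973%, fatty acid synthase (Fasn) from 0.324% to 0.495% and Gpd1, which makes glycerol phosphate, from 0.140% to 0.248% (group means). The largest losses included matrix RNAs, with thrombospondin Thbs1 going from 1.16% to 0.904%, Col1a2 from 1.13% to 0.935% and Col1a1 from 1.39% to 1.21%. Periostin (Postn) went from 0.673% to 0.533% and fibronectin (Fn1) from 0.690% to 0.555%. All of these genes were called (limma adjusted p from 7.26e-09 for Gpd1 to 0.0437 for Col1a1).

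The PGC-1 coactivators and the transcriptional regulators that work with them were examined as a list of 23 genes. Of these 5 rose, Ppargc1a itself among them, and 0 fell. The median was 0.08, or 0.03 to 0.05 without control replicate 2 or either Rbm43 siRNA replicate. Ppargc1b, which encodes the related coactivator PGC-1beta, went from 295 and 276 to 584 and 617 (1.07 ± 0.082). The fatty acid receptor PPARalpha (Ppara) went from 848 and 646 to 1818 and 1918 (1.33 ± 0.088). Its controls differed from each other, but both treated libraries lay far above either.

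The estrogen-related receptor ERRalpha (Esrra), which carries PGC-1 to respiratory genes, went from 533 and 466 to 809.9 and 726 (0.62 ± 0.081; limma adjusted p = 1.15e-05). Polrmt, the RNA polymerase of mitochondria, was the other member called (0.30 ± 0.090; limma adjusted p = 0.0226), with an adjusted p of 0.290 without Rbm43 siRNA replicate 1, 0.0504 and 0.0510 without either Cre virus library, 0.120 by DESeq2 and 0.0637 with no filter. The nuclear respiratory factors themselves were not called, with Nrf1 at 0.078 ± 0.091 and Gabpa at −0.046 ± 0.060, and neither was the mitochondrial DNA-packing factor Tfam at 0.080 ± 0.074 (limma adjusted p = 0.493). Among the 32 nuclear receptors measured 6 rose and 3 fell, and the risers included Pparg (0.64 ± 0.050), the retinoid X receptor Rxrg (0.76 ± 0.14) and the thyroid hormone receptor Thrb (0.44 ± 0.085).

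Of 23 thermogenic genes 13 rose and 1 fell, with a median of 0.50. Besides Cidea and Ucp1, the mitochondrial protein gene Letmd1 went from 739 and 713 to 1612 and 1631 (1.16 ± 0.060) and glycerol kinase (Gk) from 1060.0 and 936 to 1974 and 2005 (1.00 ± 0.064). Cox8b, a subunit form of muscle and brown fat, went from 191 and 149.7 to 349.6 and 385 (1.11 ± 0.12; limma adjusted p = 1.04e-06), whereas the common form Cox8a was not called, at 5204 and 4533, then 5102 and 4827 (0.031 ± 0.058; limma adjusted p = 0.753). Dio2, which activates thyroid hormone in brown fat, went from 19.8 and 12.2 to 62.1 and 55.0 (1.85 ± 0.26). The thioesterase Acot11 was the member that fell (−0.60 ± 0.11), and Prdm16, a regulator of brown fat identity, was not called at 0.23 ± 0.12 unless control replicate 2 was left out (0.38; limma adjusted p = 0.0290). Futile cycles of creatine and calcium gave no common direction, with 2 of 9 genes higher and 2 lower, among them the inositol trisphosphate receptor Itpr1 at 0.26 ± 0.059 and Alpl at −0.96 ± 0.11, and when any 1 library was left out 1 gene fell in place of 2.

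Adrenergic signals switch on lipolysis and heat production, and 2 of their receptors moved in opposite directions. The beta-3 receptor Adrb3, typical of mouse adipocytes, went from 1595 and 1585 to 979 and 988 (−0.69 ± 0.058; limma adjusted p = 5.57e-08). The beta-1 receptor Adrb1 went from low counts of 32.2 and 28.0 to 62.1 and 66.2 (1.07 ± 0.23; limma adjusted p = 0.00176). Of the 26 genes of the adrenergic and cyclic AMP list 8 rose and 5 fell. The inhibitory G protein subunit Gnai1 (0.92 ± 0.059), the phosphodiesterase Pde3b (0.59 ± 0.049), the mitochondrial anchor Akap1 (0.45 ± 0.056) and the catalytic subunit Prkaca of protein kinase A (0.29 ± 0.051) rose. The regulatory subunits Prkar1a (−0.35 ± 0.045) and Prkar2a (−0.43 ± 0.063), the other catalytic subunit Prkacb (−0.28 ± 0.053) and Gnai2 (−0.27 ± 0.056) fell.

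The respiratory chain was described complex by complex. Of 36 nuclear-encoded subunits of complex I, which takes electrons from NADH, 34 rose and 0 fell (median 0.45, range 0.04 to 0.89). Ndufb6 went from 1432 and 1357 to 2385 and 2502 (0.81 ± 0.055) and Ndufa9 from 3866 and 3606 to 5464 and 5330.0 (0.53 ± 0.050). The 2 subunits not called were Ndufb3 (0.045 ± 0.056) and Ndufa10 (0.047 ± 0.050). All 4 subunits of complex II, succinate dehydrogenase, rose, from Sdha (0.25 ± 0.044) to Sdhd (0.71 ± 0.052).

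All 10 genes of complex III and cytochrome c rose (median 0.47), with cytochrome c (Cycs) going from 6579.7 and 6372 to 10145 and 10334 (0.66 ± 0.045) and Cyc1 from 3378 and 2845 to 5099 and 5160.2 (0.73 ± 0.062). Of 16 subunits of complex IV, cytochrome oxidase, 12 rose and 0 fell (median 0.52), among them Cox5a (0.68 ± 0.053), Cox5b (0.67 ± 0.056) and Cox7b (0.66 ± 0.056). Of 16 genes of complex V, the ATP synthase, 13 rose and 0 fell (median 0.38). Its catalytic beta subunit Atp5b went from 31975 and 29893 to 39028 and 38506 (0.33 ± 0.048; limma adjusted p = 5.03e-05). Among the 3 genes for subunit c of the rotor, Atp5g1 rose (0.47 ± 0.059), while Atp5g2 (0.079 ± 0.064) and Atp5g3 (0.081 ± 0.051) were called only when control replicate 1 was left out (0.16 and 0.15; limma adjusted p = 0.0492 and 0.0206).

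The control libraries themselves differed in these lists. Control replicate 1 exceeded control replicate 2 by a median of 0.17 in complex I and 0.20 in complexes III and IV, against treated medians 0.46 and 0.48 above the control mean in complex I. The size of the rise moved with the control used, with medians without control replicate 1 and without control replicate 2 of 0.55 and 0.39 in complex I, 0.52 and 0.40 in complex III and 0.67 and 0.42 in complex IV. Each count for the 5 complexes stayed within 1.5 times of the value given when any 1 library was left out. Counts were lower without the mean-variance trend, at 23 risers for complex I and 5 for complex III.

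**Figure D3:**
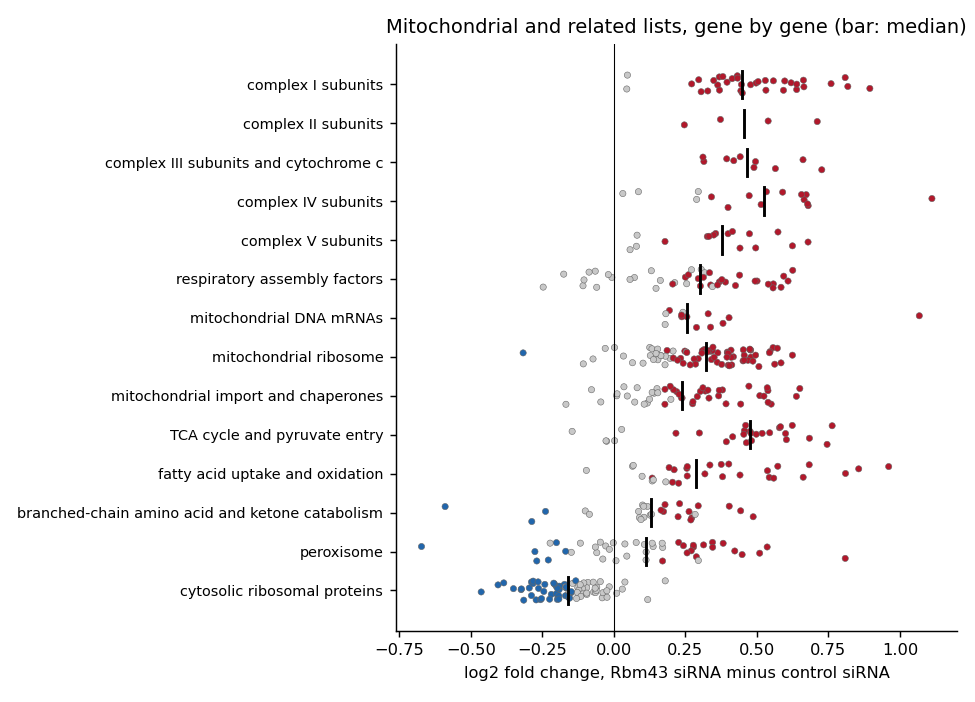
Log2 fold change of each gene (points; red called higher, blue called lower, gray not called) in lists of mitochondrial and related genes, with the list median as a black bar. The subunit lists lie almost wholly to the right of 0, with medians between 0.38 and 0.52, and cytosolic ribosomal proteins to its left, with a median of −0.16.

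Genes that build and serve the respiratory chain also rose. Of 43 assembly factors 23 rose and 0 fell (median 0.30), among them Coa5 (0.56 ± 0.049), the heme A synthase Cox15 (0.59 ± 0.063) and Ndufaf1 (0.58 ± 0.064), and the count was 15 without Rbm43 siRNA replicate 2 and by DESeq2 and 7 without the mean-variance trend, and the median 0.20 without control replicate 2. Of 78 proteins of the mitochondrial ribosome, which translates the mitochondrial mRNAs, 53 rose and 1 fell (median 0.32). Mrpl50 went from 734 and 696 to 1132 and 1074 (0.62 ± 0.064), and Mrpl24 was the member that fell (−0.32 ± 0.062; limma adjusted p = 8.89e-04). Of 47 genes of protein import and folding 30 rose and 0 fell (median 0.24), including the import motor genes Timm44 (0.54 ± 0.060) and Grpel1 (0.51 ± 0.051) and the chaperone Hspa9 (0.28 ± 0.044).

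Of the 13 mRNAs made from mitochondrial DNA 10 rose and 0 fell (median 0.26), with COX1 at 443718 and 442776 and then 536235 and 546629 (0.29 ± 0.063; limma adjusted p = 0.00222). ND1 went from 97317 and 89211 to 120060 and 126328 (0.40 ± 0.057) and ND2 from 78737 and 74449.9 to 94643 and 98919 (0.34 ± 0.053). ATP8 had the largest change, but from low counts (34.3 and 26.8 to 63.1 and 66.2; 1.07 ± 0.21), so its value is uncertain. ND3, ND4L and COX3 were not called.

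Promoter letters of nuclear mitochondrial genes were counted as a description. CCGGAAG, the core bound by the GABPA factor, on either strand, was in 25 of 68 mitochondrial ribosome promoters (36.8%), 15 of 38 assembly factor promoters (39.5%), 5 of 14 for complex V (35.7%) and 4 of 32 for complex I (12.5%). It was in 19.2% of the promoters of all genes compared and in 8.86% of all promoters. The core was also in 23 of 57 promoters of cytosolic ribosomal proteins (40.4%), a list with 43 falls and 0 rises. By call, it was in 285 of the 1425 genes that rose, 144 of the 1029 that fell and 1575 of the 8004 not called. High shares were thus not limited to lists that rose. TCAAGGTCA, an element of estrogen-related receptors, was in 0 of the promoters of complexes I, III and IV. It was in 1 of 3 for complex II and 1 of 14 for complex V (7.14%), against 0.325% of genes compared and 0.423% of all promoters. The nuclear respiratory factor 1 site was in 3.12% for complex I, 0 of 3 for complex II and 1 of 6 for complex III (16.7%). For complexes IV and V it was in 8.33% and 14.3%, against 2.27% of genes compared and 0.971% of all promoters.

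Genes of fuel oxidation rose as well. Of 27 genes of pyruvate entry and the tricarboxylic acid cycle 22 rose and 0 fell (median 0.48). The pyruvate carrier Mpc2 went from 2824 and 2500.1 to 4560.1 and 4459.7 (0.76 ± 0.056) and the pyruvate dehydrogenase subunit Pdhb from 4938 and 4556 to 7967 and 7934 (0.75 ± 0.050). Groups were apart in both, as in every gene called. Of the kinases that switch pyruvate dehydrogenase off, Pdk2 rose (0.68 ± 0.059), while Pdk4 was not called (0.068 ± 0.051; limma adjusted p = 0.382). Idh2, the NADP-linked isocitrate dehydrogenase of mitochondria, was not called (−0.026 ± 0.063), and all 3 subunit genes of the NAD-linked enzyme rose, at 0.39 (Idh3a), 0.48 (Idh3b) and 0.46 (Idh3g).

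Of 30 genes of fatty acid uptake and oxidation 23 rose and 0 fell (median 0.29). Acaa2, the last enzyme of the mitochondrial spiral, went from 5487 and 5188 to 9417 and 9287 (0.81 ± 0.047). The trifunctional enzyme subunits Hadha (0.54 ± 0.045) and Hadhb (0.56 ± 0.044) rose, as did Etfdh, which passes the electrons to ubiquinone (0.66 ± 0.049). Cpt1a, the liver form of the gate for fatty acids into mitochondria, was not called at 1242 and 1228, then 1319.7 and 1392 (0.13 ± 0.058; limma adjusted p = 0.108). Without control replicate 1, 1 gene fell in this list and 1 in the tricarboxylic acid list, and without control replicate 2, 1 assembly factor and 1 import gene fell.

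Peroxisomal genes were mixed. Of 45, 17 rose and 6 fell (median 0.11), with the bifunctional enzyme Ehhadh going from 1753 and 1736 to 2847 and 3279.7 (0.81 ± 0.062) and Pex11a, which drives peroxisome division, rising (0.54 ± 0.062). Hacl1 of alpha-oxidation went the other way, from 1866 and 1804 to 1082 and 1224 (−0.67 ± 0.064), as did the import receptor Pex5 (−0.28 ± 0.053) and Phyh (−0.27 ± 0.057). Without Rbm43 siRNA replicate 1, 10 rose and 3 fell. Of 27 genes of branched-chain amino acid and ketone catabolism 12 rose and 3 fell (median 0.13), Acat1 by 0.44 upward, and Mccc2 (−0.59 ± 0.072) and the ketone-using enzyme Oxct1 (−0.29 ± 0.047) downward.

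Lipid storage genes rose with oxidation genes. Of 19 genes of the lipid droplet and lipolysis 16 rose and 0 fell (median 0.34). The droplet coat proteins Plin2 (11525 and 10952 to 16643 and 16191; 0.55 ± 0.047) and Plin5, which tethers droplets to mitochondria (464 and 437 to 848 and 806; 0.87 ± 0.075), were higher in both treated libraries. So were Abhd5, which activates triglyceride lipase (0.52 ± 0.050), and Cidec, which enlarges droplets (0.48 ± 0.054).

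Of 27 genes of fatty acid and triglyceride synthesis 19 rose and 2 fell (median 0.29). The acetyl-CoA carboxylases went from 15029.9 and 15007 to 23481 and 24316 (Acaca, 0.67 ± 0.047) and from 2817 and 2633 to 5244 and 5244 (Acacb, 0.95 ± 0.050). Mlxipl, which encodes the sugar-sensing factor ChREBP, went from 311 and 278 to 721 and 674 (1.24 ± 0.082), and the sterol-regulated factor Srebf1 rose (0.26 ± 0.048). Fasn (0.64 ± 0.053) and ATP citrate lyase (Acly, 0.65 ± 0.058) rose as well. The desaturase Scd1 was not called by limma (401702 and 399021, then 450240 and 445791; 0.16 ± 0.062; adjusted p = 0.0694) but was by edgeR (adjusted p = 0.00239) and DESeq2. The falls were those of Aacs, which makes acetoacetyl-CoA (−0.50 ± 0.051), and Pck1 of glyceroneogenesis (−0.39 ± 0.069).

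Cholesterol genes had no common direction. Of 32 genes 7 rose and 2 fell, with a median of 0.0027 that changed sign under upper-quartile and total scaling and without Rbm43 siRNA replicate 1. Sc5d (0.40 ± 0.047) and Dhcr7 (0.39 ± 0.058) rose, Apoe fell (1990.0 and 1808 to 1207 and 1211; −0.65 ± 0.060), and without control replicate 2 the falls numbered 5. Of 26 genes of glucose uptake and glycolysis 18 rose and 1 fell (median 0.21, or 0.14 without Rbm43 siRNA replicate 1), and without the mean-variance trend 6 rose. The insulin-regulated transporter Slc2a4 went from 1131 and 975 to 1689 and 1658 (0.67 ± 0.070), hexokinase Hk2 rose (0.55 ± 0.054) while Hk1 was not called (0.084 ± 0.059), and the monocarboxylate carrier Slc16a1 rose (0.66 ± 0.051). The falls numbered 2 without Rbm43 siRNA replicate 1 and 0 without replicate 2 or either Cre library. In insulin signalling 7 of 26 rose and 3 fell. The rises were led by Tbc1d4, a regulator of the movement of glucose transporters (0.57 ± 0.064), and by Mtor (0.41 ± 0.052). Without the mean-variance trend 2 genes of this list rose and 0 fell, and with no filter 3 rose and 3 fell. Its median was 0.07, or 0.03 without control replicate 1.

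Mature adipocyte markers split. Of 29, 13 rose and 8 fell (median 0.10), both shares above their background. Fabp4 went from 137846 and 125493 to 191083 and 190516 (0.54 ± 0.058), Gpd1 from 29092 and 24796 to 47905 and 49202 (0.85 ± 0.060) and the master regulator Pparg from 2049 and 2021 to 3218 and 3129.5 (0.64 ± 0.050). Against these, complement factor D (Cfd, adipsin) went from 2683 and 2487 to 1908 and 2069.9 (−0.38 ± 0.057) and the adipocyte factor Cebpa from 4768 and 4373 to 3531 and 3569 (−0.36 ± 0.051), beside Retn, Nnat and Adrb3. Of the secreted hormones, adiponectin (Adipoq, 0.068 ± 0.046; limma adjusted p = 0.314) and leptin (Lep, −0.28 ± 0.15; limma adjusted p = 0.196) were not called. The sum of the list took 1.90% to 2.00% of counts with control siRNA and 2.43% to 2.51% with Rbm43 siRNA. Within it, Fabp4 went from 0.684% to 0.973% and Gpd1 from 0.140% to 0.248% (group means), so the sum mostly reflects abundant members.

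Genes induced by interferon formed a second group that rose. Interferons act through transcription factors of the STAT and IRF families, some of which bind the response element described above for Rbm43, and induce proteins that block viruses. Of 49 antiviral effectors 27 rose and 1 fell (median 0.33). The tethering protein gene Bst2 went from 1313 and 1382 to 2077 and 1944 (0.58 ± 0.056), the oligoadenylate synthetase Oas2 from 395 and 449 to 724 and 681 (0.74 ± 0.079) and Rtp4 from 872 and 1044 to 1622 and 1470.1 (0.69 ± 0.075). The groups did not overlap in any of these, as in every gene called.

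Other classical effectors were not called, among them Mx1 (−0.52 ± 0.25), Ifit1 (1114 and 1980.3, then 1759.5 and 1562; 0.16 ± 0.15) and Ifit2 (402 and 592, then 483 and 477; −0.023 ± 0.12). The direction of the Ifit genes depended on the control library. Ifit1 stood at −0.26 without control replicate 1 and at 0.57 without control replicate 2, and Ifit2 at −0.30 and 0.26, each past an adjusted p of 0.05.

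Of 17 interferon-induced GTPases, which attack the membranes around intracellular microbes, 12 rose and 0 fell (median 0.49). Gbp3 went from 768 and 909 to 1525 and 1512 (0.86 ± 0.070), Gbp6 from 362 and 481 to 826 and 826 (0.98 ± 0.096) and Iigp1 from 2401 and 3009 to 4215 and 4209.7 (0.65 ± 0.074). Guanylate-binding proteins have near-identical copies among which reads can be split. Of 23 IRF, STAT and receptor genes 5 rose and 1 fell (median 0.014, with its sign changing under upper-quartile and total scaling and without control replicate 1 or Rbm43 siRNA replicate 1). Irf7, which amplifies interferon responses, stood out, from 1104 and 1271 to 2871 and 2458 (1.16 ± 0.072; limma adjusted p = 1.86e-09). Without Rbm43 siRNA replicate 1 or 2 the rises in this list numbered 2 and 3, without either Cre library 3, and without control replicate 2 or Rbm43 siRNA replicate 2 none fell. The receptor genes Ifnar1 and Ifnar2 were not called (−0.0054 and 0.11).

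Of 23 genes listed with the sensors of foreign nucleic acid 6 rose and 0 fell (median 0.14). Zbp1, a sensor of left-handed double helices, went from 673 and 689 to 1351 and 1237 (0.92 ± 0.064; limma adjusted p = 5.76e-09) and Nlrc5, which activates MHC class I genes, from 248 and 285 to 403 and 396 (0.59 ± 0.094). The median for sensors was 0.03 without control replicate 1. Their count was 2 without control replicate 1 or Rbm43 siRNA replicate 1, 11 without control replicate 2, and 3 without either Cre virus library.

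The control libraries differed in this group in the opposite sense to the respiratory genes. Control replicate 1 was below control replicate 2 by a median of 0.27 in the effectors and 0.33 in the GTPases. Against the mean of both controls, the effectors stood at −0.14 and 0.14 in the controls and at 0.39 and 0.30 in the treated libraries. The GTPases stood at −0.16 and 0.16 and at 0.47 and 0.51, so the treated medians lay above both control medians in each list. Without control replicate 1 the medians were 0.24 and 0.28, and 3 effectors fell, and without control replicate 2 the median of the effectors was 0.51. Without the mean-variance trend 9 effectors and 6 GTPases rose. By DESeq2 6 GTPases rose. All cells had received adenovirus, and the part of the virus in these levels was not tested, as no library without virus was analysed here.

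Of the promoters searched, the response element core was in 9 of 10 for the GTPases (90.0%) and 17 of 39 for the effectors (43.6%). It was in 5 of 15 for the sensors (33.3%) and 5 of 17 for MHC class I genes (29.4%). The effector and GTPase lists were made of interferon-induced genes, so their shares do not bear on the change seen here. By call, the core was in 4.98% of genes that rose, 4.18% of those that fell and 3.52% of those not called. The windows of 3 genes that rose are shown with their matches in capitals (RefSeq, GRCm38.p6). They lie at chr3:142559984-142560029, plus strand (Gbp3), chr8:71537572-71537617, minus strand (Bst2), and chr2:122147533-122147572, plus strand (B2m).
Gbp3: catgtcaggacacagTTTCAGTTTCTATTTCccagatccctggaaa
Bst2: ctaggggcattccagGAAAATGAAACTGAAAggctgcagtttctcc
B2m: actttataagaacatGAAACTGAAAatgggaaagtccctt
The run of 16 capitals in Gbp3 has the same letters as that in Rbm43. Rbm43 itself was lowered by its siRNA, so its level says nothing of this stretch.

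**Figure D4:**
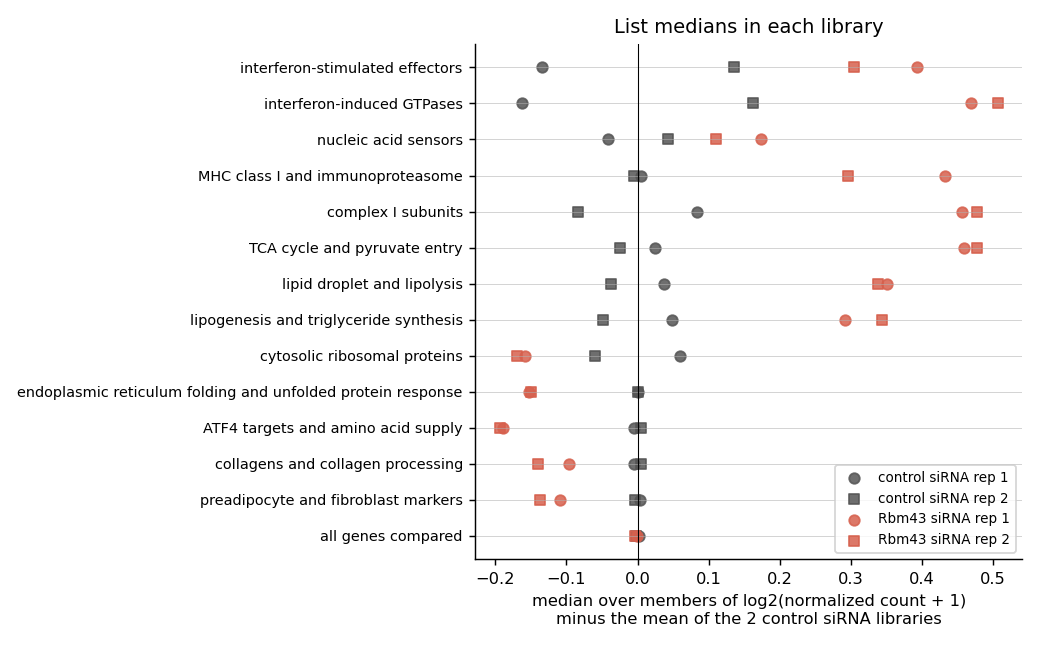
Median over the members of each list of log2(normalized count + 1), minus the mean of the 2 control siRNA libraries, in each library (gray control siRNA, orange Rbm43 siRNA, circles replicate 1, squares replicate 2). The treated libraries lie to the right of both controls in the first 8 lists drawn, from the effectors to lipogenesis, and to their left in the next 5, from ribosomal proteins to fibroblast markers, with the widest control gap, −0.16 against 0.16, in the interferon-induced GTPases; all genes together stay within 0.0037 of 0.

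MHC class I molecules show peptides cut by the immunoproteasome, and 15 of 21 genes of this machinery rose, with 0 falling (median 0.40). Beta-2 microglobulin (B2m) went from 20777 and 20300.1 to 29007 and 28378 (0.48 ± 0.045; limma adjusted p = 2.46e-07), the immunoproteasome subunit Psmb8 from 654 and 685 to 1016 and 993 (0.58 ± 0.064) and H2-D1 from 11404 and 10956 to 15090.1 and 14442 (0.40 ± 0.047). H2-Q6 had the largest rise (1.21 ± 0.11), in a family of near-identical genes, and H2-K1 was not called (−0.081 ± 0.049). Here the control medians differed by 0.0090. Of 34 genes of the constitutive proteasome 10 rose and 0 fell (median 0.07, or 0.11 and 0.016 without control replicates 1 and 2), led by Psma1 (0.48 ± 0.048), and without control replicate 2, or with upper-quartile or total scaling, 1 fell.

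NF-kB targets and chemokines did not share this direction, with 4 of 33 higher and 5 lower. Complement C3 went from 3721 and 3851 to 2592 and 2455 (−0.59 ± 0.057), the interleukin 1 receptor antagonist Il1rn from 665 and 581 to 367 and 361 (−0.77 ± 0.084) and haptoglobin (Hp) from 54096 and 50577 to 43603 and 40073 (−0.32 ± 0.054). The rises included mitochondrial superoxide dismutase Sod2 (0.41 ± 0.051) and lipocalin Lcn2 (0.69 ± 0.11), and without control replicate 2 the rises numbered 7.

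Protein folding genes of the endoplasmic reticulum fell. Of 33 genes of folding and the unfolded protein response 17 fell and 2 rose (median −0.17). The chaperone BiP (Hspa5) went from 22851 and 24313 to 17738 and 17567 (−0.42 ± 0.047), Hsp90b1 from 28446 and 30152 to 23466 and 23029.8 (−0.33 ± 0.047), the disulfide isomerase Pdia6 from 7465 and 7247 to 5927 and 5754 (−0.33 ± 0.047) and Herpud1, which acts in the disposal of misfolded proteins, from 1489 and 1585 to 1052 and 1063 (−0.54 ± 0.058). The stress sensors Atf6 (−0.076 ± 0.058) and Eif2ak3 (−0.025 ± 0.076) were not called. The 2 that rose, Ero1l (0.25 ± 0.071) and Derl1 (0.14 ± 0.047), were not called without control replicate 1 (adjusted p = 0.106 and 0.0651) or Rbm43 siRNA replicate 1 (0.228 and 0.0833), and Derl1 without Rbm43 siRNA replicate 2 (0.191) or either Cre library (0.0891 and 0.0894).

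The ER stress element, CCAAT and CCACG 9 bases apart, was in 9 of the 25 promoters of this list (36.0%), against 0.182% of the genes compared and 0.119% of all promoters. It is shown in capitals for the BiP gene, at chr2:34772010-34772058, plus strand, and for Pdia6, at chr12:17266476-17266524, plus strand (RefSeq, GRCm38.p6).
Hspa5: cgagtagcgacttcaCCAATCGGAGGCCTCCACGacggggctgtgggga
Pdia6: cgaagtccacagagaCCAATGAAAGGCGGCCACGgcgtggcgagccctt
Among all genes compared with a promoter, it was in 8 of the 1029 that fell, 1 of the 1425 that rose and 10 of the 8004 not called. The list was made of genes of folding and the unfolded protein response, so its share does not bear on the change seen here.

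Targets of ATF4, the factor that raises amino acid supply under stress, fell as well. Of 41, 25 fell and 2 rose (median −0.22), against 9.88% lower among all genes. The pseudokinase gene Trib3 went from 772 and 809 to 446 and 555 (−0.67 ± 0.088), the arginine transporter Slc7a1 from 1344 and 1251 to 958 and 1026 (−0.39 ± 0.062), Phgdh, the first enzyme of serine synthesis, from 796 and 799.7 to 608 and 609 (−0.39 ± 0.066) and Aldh18a1 of proline synthesis from 2291 and 2308 to 1847 and 1846 (−0.32 ± 0.051). Atf4 itself fell slightly (−0.22 ± 0.049; limma adjusted p = 0.00234). The lipoprotein receptor Vldlr (2737 and 3107 to 3981 and 3926; 0.44 ± 0.057) was 1 of the 2 that rose. Without Rbm43 siRNA replicate 1, 16 members fell, and without the mean-variance trend 6.

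TGATGNAA, the ATF4 composite element, on either strand, was in 14 of 31 promoters of this list (45.2%), against 2.84% of genes compared and 3.97% of all promoters. The list was made of ATF4 targets, so its share does not bear on the change seen here. By call, the composite element was in 2.53% of genes that rose, 4.28% of those that fell and 2.71% of those not called. Herpud1, which fell, and Vldlr, which rose, both hold it, at chr8:94386302-94386339 and chr19:27216805-27216842, plus strands (RefSeq, GRCm38.p6, match in capitals).
Herpud1: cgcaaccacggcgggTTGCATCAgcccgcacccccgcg
Vldlr: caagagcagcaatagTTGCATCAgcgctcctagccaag

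Cytosolic ribosomal protein genes fell by small amounts. Of 78, 43 fell and 0 rose (median −0.16, or −0.099 without control replicate 1). The laminin receptor gene Rpsa went from 17438 and 18384 to 12786 and 13177 (−0.46 ± 0.049), Rps6 from 7427 and 7174 to 5563 and 5461 (−0.41 ± 0.046) and Rplp0 from 19647 and 20637 to 15876 and 15692 (−0.35 ± 0.047). In each the treated libraries lay below both controls, as in every gene called lower. The number of calls in the list moved with the library left out. It was 32 fallen and 7 risen without control replicate 1, 71 fallen without control replicate 2, and 28 fallen without Rbm43 siRNA replicate 2. Without the mean-variance trend 9 fell. These genes have many processed pseudogenes with which reads can be shared.

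Of 45 genes of translation initiation and elongation 12 fell and 5 rose (median −0.06, or −0.10 and −0.03 without Rbm43 siRNA replicates 1 and 2). Eif4ebp2, a brake on the cap-binding factor, went from 2403 and 2437 to 1482 and 1498 (−0.70 ± 0.053), and the elongation factor Eef2 fell (−0.24 ± 0.046). Without Rbm43 siRNA replicate 1 or 2, 1 gene rose, without either Cre library 2, and without Rbm43 siRNA replicate 2 the falls numbered 6.

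Matrix genes fell in part. Of 35 collagens and collagen enzymes 15 fell and 1 rose (median −0.12), and without Rbm43 siRNA replicate 2 the falls numbered 8. Col15a1, a basement membrane collagen, went from 10045 and 10541 to 6031 and 6211 (−0.75 ± 0.046), Col8a1 from 8619.7 and 9047 to 6075 and 5942 (−0.56 ± 0.047) and the crosslinking enzyme Loxl3 from 5458 and 5229 to 4144 and 3830.1 (−0.42 ± 0.050). Col27a1 went the opposite way, from 494 and 497 to 971 and 1025 (1.01 ± 0.066), and Col3a1, a fibrillar collagen of high counts, was not called (0.038 ± 0.059).

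Of 39 matrix glycoproteins and proteases 17 fell and 8 rose (median −0.13). Beside Cilp, the falls included fibromodulin (Fmod, −0.60 ± 0.051), tenascin C (Tnc, 38382 and 39833 to 31583 and 28321; −0.39 ± 0.054) and Mmp11 (−0.55 ± 0.078). The rises included 3 laminin chains, Lama4 (0.32 ± 0.046), Lamb1 (0.27 ± 0.045) and Lamc1 (0.27 ± 0.046), and macrophage elastase Mmp12 (0.86 ± 0.13).

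In the list of actin and serum response factor targets 6 of 31 fell and 4 rose. Actg1 and the tropomyosin Tpm3 fell (−1.04 and −0.30), and smooth muscle myosin Myh11 (1516 and 1423 to 2269 and 2231; 0.62 ± 0.055) and smooth muscle gamma-actin Actg2 (0.49 ± 0.064) rose. The number of falls was 11, 10 and 2 without control replicate 2 and Rbm43 siRNA replicates 1 and 2, and 12 with upper-quartile or total scaling. In the cell cycle list 8 of 33 fell and 3 rose (median −0.17), the falls including the replication helicase gene Mcm6 (−0.37 ± 0.078) and cyclin Ccna2 (−0.37 ± 0.087). Without Rbm43 siRNA replicate 1 the counts were 5 and 0, without replicate 2 the falls were 4, and without either Cre library 5. Of 19 p53 targets 5 fell and 1 rose, among the falls Plk2 (−0.35 ± 0.053) and Zmat3 (−0.35 ± 0.053). Without control replicate 2, Rbm43 siRNA replicate 1 or either Cre library 3 fell. Without control replicate 1, 3 rose, and without Rbm43 siRNA replicate 1 none did.

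Genes handling retinoids and thyroid hormone changed individually. Of 25, 6 rose and 7 fell, and without Rbm43 siRNA replicate 2 the falls numbered 4. Beside Aldh1a3, the retinol dehydrogenase Rdh11 fell (759 and 753 to 469 and 489.7; −0.66 ± 0.073), while Aldh1a1, a relative of Aldh1a3, was not called (1002 and 1047, then 979.8 and 949; −0.087 ± 0.063). The thyroid hormone pair moved apart, with the inactivating Dio3 going from 318 and 353 to 167 and 158 and the activating Dio2 rising as given above.

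Of 35 enzymes of sphingolipids, inositol and phospholipids 9 rose and 5 fell. Acer2, Cds1 and Impa2 were among the 15 largest rises, and choline phosphotransferase Chpt1 rose (5059.9 and 5339.8 to 7642 and 8029.5; 0.59 ± 0.050). The related ceramidase Acer3 was not called (−0.21 ± 0.10; limma adjusted p = 0.160) unless Rbm43 siRNA replicate 2 was left out (−0.36; adjusted p = 0.0455). The paralogs Cds2 (−0.026 ± 0.057) and Impa1 (0.081 ± 0.068) were not called in any fit. The ceramide synthase Cers4 fell (582 and 571 to 335 and 360.1; −0.73 ± 0.079), as did Cers5 (−0.25 ± 0.059).

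Among 39 other proteins with RNA-binding motifs named Rbm, Rbms or Rbmx, 2 rose and 3 fell. The siRNA's target family thus stayed at or under the background share. Without the mean-variance trend 0 of the 39 rose and 0 fell. The largest log2 fold change among them was 1.825, in a gene other than Rbm38. Rbm38 was the riser whose call held in each leave-one-out fit (42.7 and 19.5 to 80.6 and 71.8; 1.37 ± 0.27), and Rbms3 fell (−0.25 ± 0.058). Without control replicate 1 the falls numbered 5, and without Rbm43 siRNA replicate 2 or either Cre library 1. Without either Rbm43 siRNA library or either Cre library the rises numbered 1.

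Markers of other cells were read for the culture's makeup. Among 24 markers of preadipocytes and fibroblasts, 9 fell and 0 rose (median −0.11), with gelsolin (Gsn) going from 14461 and 14329.8 to 11067 and 10500.5 (−0.42 ± 0.046) and Sfrp2 from 3215 and 3254 to 2323 and 2499 (−0.42 ± 0.054). Among the defining progenitor genes, Pdgfra (−0.042 ± 0.045) and Dlk1 (−0.025 ± 0.28) were not called. Col1a1, given above as a fibroblast gene and outside this list, was called lower (−0.17 ± 0.060; limma adjusted p = 0.0437). Summed over the list, counts were 174248 and 172083 with control siRNA and 154628 and 148271 with Rbm43 siRNA. This was the same direction as the matrix lists, and the part of fibroblasts and preadipocytes in those lists was not tested.

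Of 19 macrophage markers 4 fell and 1 rose, with Csf1r at 210.1 and 204, then 148 and 131 (−0.57 ± 0.13) and the defining Adgre1 at 199.7 and 224, then 224 and 216 (0.059 ± 0.11, not called). Their sum lay between 2327 and 2759 in the 4 libraries with overlapping groups, and without control replicate 1 or Rbm43 siRNA replicate 2 the falls numbered 2. The rise was not called without Rbm43 siRNA replicate 1 or either Cre library. Their median of −0.031 turned with the library left out, to −0.18 without Rbm43 siRNA replicate 1 and 0.08 without replicate 2, and the part of these cells in the interferon lists above was not tested. Of 12 endothelial markers 1 fell and 0 rose, or 0 without control replicate 2, Rbm43 siRNA replicate 2 or either Cre library, and the defining Pecam1 and Cdh5 lay between 32.9 and 42.7 normalized counts in the 4 libraries. Of 12 mural markers 4 rose and 1 fell, with Cspg4 at 0.36 ± 0.068 and Pdgfrb at −0.28 ± 0.047. Of 18 markers of lymphocytes, mast cells and neutrophils 1 passed the limit of 10, and 9 were at 0 in all 4 libraries, Cpa3 and S100a9 among them. Of 11 skeletal muscle markers 3 passed, and 4 were at 0, Myod1 and Ckm among them.

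**Figure D5:**
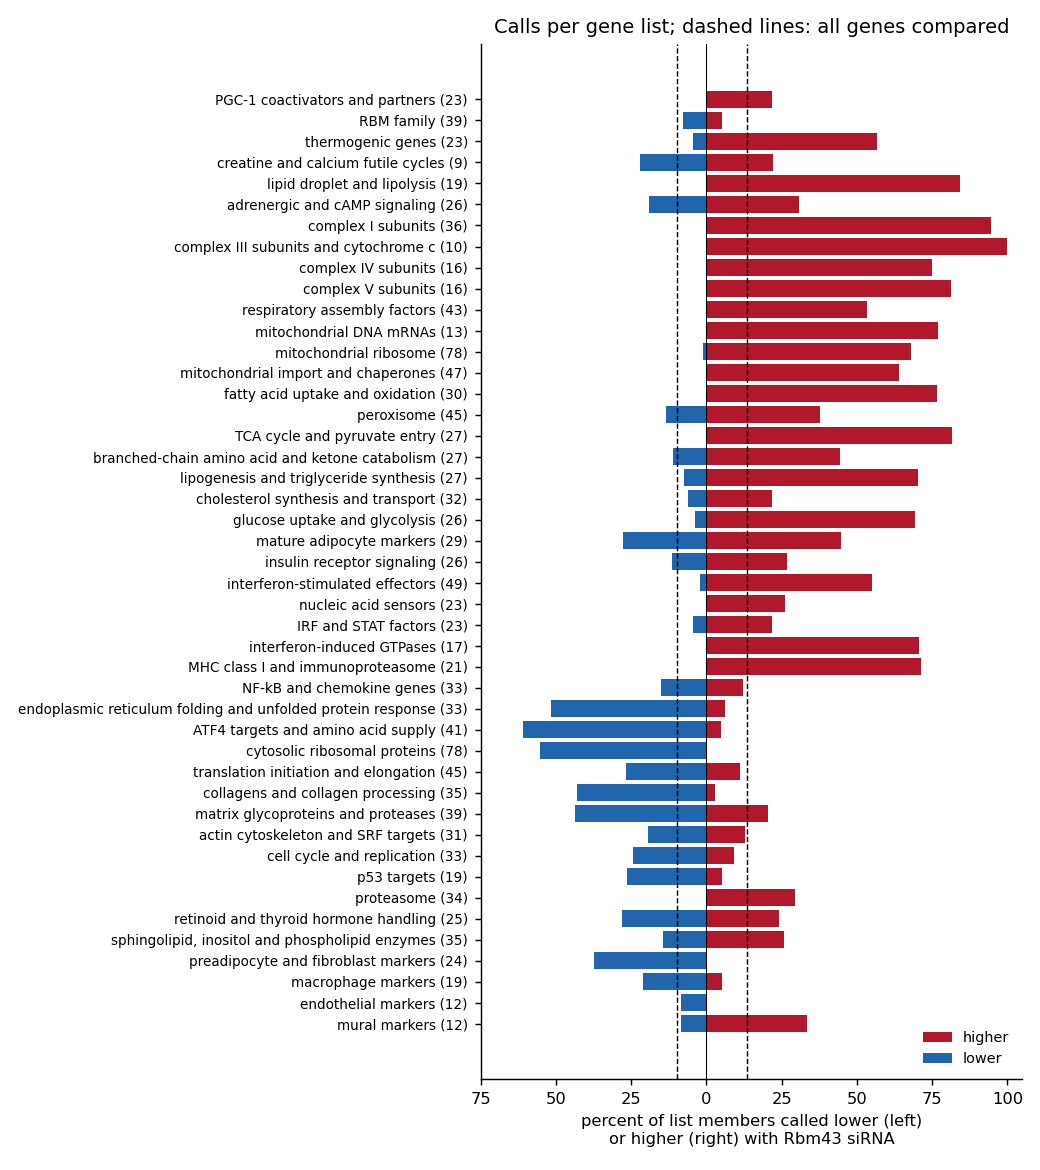
Percent of the members of each list (number in brackets; lists of at least 9) called higher (red, right) or lower (blue, left) with Rbm43 siRNA; dashed lines mark the shares over all genes compared, 13.6% higher and 9.88% lower. The bars of complex III and complex I reach 100% and 94% to the right, and those of ATF4 targets, cytosolic ribosomal proteins and reticulum folding genes reach 61%, 55% and 52% to the left.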

How the data were processed

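RNA was measured by stranded poly(A) sequencing, per the labels' protocols, in 6 libraries of 3 groups with 2 replicates each. Per the submitters' processing notes, the tools were DESeq2 2.11.40.7, STAR 2.7.8 and fastp 0.23.2, with build mm10. Not given in the sources used here were the gene counter, the annotation and whether counting used strand. The authors deposited 1 table of normalized counts, a non-negative signal in which each library's read counts had been divided by its own size factor. Every value was a whole number of reads within 0.01 read (100%), so reads were recovered. They gave 15775398 to 21961724 reads per library.

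Log2(normalized count + 1) was fitted in R 4.3.3 by limma 3.58.1, taking the mean-variance trend into account, with 1 mean per group over all 6 libraries (3 residual degrees of freedom), and p-values were adjusted by Benjamini-Hochberg over all fitted genes. Fold changes are on that scale, which understates the change of genes with low counts. Genes at 10 or more in at least 2 of the 6 libraries were fitted, and the threshold was an adjusted p of 0.05. An exact permutation test of 2 libraries against 2 cannot go below 0.333. On recovered reads edgeR 4.0.16 called 3261 genes. Other alternatives were DESeq2 1.42.0, other pseudocounts, filters and scalings, a replicate block, fewer groups, no trend and each library left out. The fit was tested on simulated data.

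The comparison and its 49 gene lists were chosen with earlier results of these data known. Lists are described by counts and medians beside those of all genes, and some share members. Named genes were the target genes and the 15 largest rises and falls. Those rises and falls were of called genes with a mean of at least 50 and groups not overlapping. Each list added up to 4 members of smallest p, up to 5 going the other way and the member with most counts. Some genes that this rule takes are not reported here. Other genes named were chosen after their values were seen. Of the 14039 genes, 13304 matched RefSeq (GRCm38.p6) by symbol, and 21 carried symbols turned into dates by a spreadsheet. Control siRNA with Cre virus was not analysed here.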

Additional observations from a re-analysis of the deposited data

How the results depend on the processing

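Across 17 alternatives, the numbers of genes called, higher and lower stayed within 1.5 times of 3299, 1912 and 1387 except as follows. Without the mean-variance trend there were 1301, 875 and 426. With DESeq2 there were 2035, 1267 and 768, with 1206 genes given no adjusted p. With no filter 869 genes were lower. Leaving out 1 library at a time gave 2112 to 3627 genes, 1317 to 2134 higher and 755 to 1493 lower, the fewest in all and the fewest lower without Rbm43 siRNA replicate 2. Where a group kept 1 library, that library was assumed to vary like the other groups. Of 361 genes followed singly, of which 306 were called, the direction reversed with a call in 2. Ifit1 (0.16) was at −0.26 without control replicate 1 and 0.57 without control replicate 2, and Ifit2 (−0.023) at −0.30 and 0.26. The cause was not tested. With the replicate block 1981 genes were higher and 1428 lower (3409 in all). The numbers share only a label, since deviations of same-numbered libraries correlated at 0.022, −0.039 and −0.030 between groups. Total scaling moved the median log2 fold change of all genes from −0.0062 to −0.031. With 2 libraries per group, small changes of genes with low counts were not detectable at this depth.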

Other observations

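Some gene families outside the comparison's lists were counted in the same fit, and they were chosen after the values were seen. Of 40 carriers of the mitochondrial inner membrane (Slc25) 14 rose and 5 fell. The ADP/ATP carrier Slc25a5 went from 6809 and 6662 to 9454 and 9604 (0.50 ± 0.047), and the ATP-magnesium carrier Slc25a25 from 570.1 and 549 to 909.9 and 862 (0.66 ± 0.067). The glutamate carrier Slc25a22 moved the other way, from 999.7 and 870.3 to 609 and 569 (−0.66 ± 0.079). Of 10 acyl-CoA synthetase genes 6 rose and 1 fell, with Acsf2 going from 1993 and 1973 to 3222 and 3271 (0.71 ± 0.049) and Acss3 falling (−0.47 ± 0.11).

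Of 9 carbonic anhydrases 3 rose and 1 fell. Car3, a cytosolic form typical of fat and muscle, went from 21987 and 22358 to 30396 and 36487 (0.59 ± 0.069). Of 40 DNAJ co-chaperones 12 rose and 2 fell, the latter Dnajc3 (−0.20 ± 0.049) and Dnajc10 (−0.18 ± 0.050), both of the endoplasmic reticulum. Without Rbm43 siRNA replicate 1 or 2 the call for Dnajc10 was lost (adjusted p = 0.0672 and 0.0623). Of 25 histone genes 6 rose and 0 fell, with Hist1h4h going from 606 and 577 to 1111 and 1035 (0.86 ± 0.068). Of 335 zinc finger genes named Zfp 19 rose and 11 fell, both shares under those of all genes (13.6% and 9.88%).

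Several large changes lay in genes of low counts. The receptor gene Gabbr2 went from 2.08 and 3.65 to 36.9 and 38.2, and Derl3, of the reticulum's disposal pathway, from 46.8 and 45.0 to 9.71 and 1.87. P2ry14, a receptor for UDP-glucose, was at 0.00 and 6.09 and then 38.8 and 31.7, a control library being at 0. Adamts16 went from 55.1 and 47.5 to 6.80 and 12.1. Gabbr2 and P2ry14 passed the limit of 10 only through the Rbm43 siRNA libraries, and Derl3 only through the controls. A difference between groups thus came with their inclusion, and their values are given as a description.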
